A study of Homo sapiens with 12 samples.

Results

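The genes described here are 43 genes of homologous recombination, the Fanconi anaemia pathway and poly-ADP-ribose polymerases (PARPs), with the checkpoint kinases and repair-choice factors that act beside them. They were taken by gene symbol from a table of raw RNA-seq read counts with 21569 rows. All 43 were in the table, and all were among the 17084 genes that passed a filter on low counts and were tested. The RNA came from TC71, an established line of human Ewing sarcoma cells, and the 12 libraries form 4 groups of 3. The groups are the wild-type line, 2 clones in which ID2 had been knocked out (clone 1 and clone 2), and a line made from clone 2 and labelled as an ID2 rescue. ID2 pairs with E proteins, a class of transcription factors, and in doing so blocks their contact with DNA, and the study asked which genes depend on it in these cells. Every group was grown in DMEM with 10% fetal bovine serum, and no group was given a drug or a DNA-damaging agent. Each knockout group is 1 clone, so the effect of losing ID2 and the properties of a clone cannot be told apart within a group. The labels name no vector or guide, and they do not state whether a group's 3 libraries are separate cultures. The p-values therefore rest on library-to-library spread alone, and that spread may be technical.

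As background, homologous recombination repairs broken DNA from an intact sister copy. The MRE11, RAD50 and NBN complex binds the break, RBBP8, EXO1 and BLM with its partners cut back one strand, and BRCA1, PALB2 and BRCA2 load a recombinase that finds the matching sequence. The Fanconi proteins act where the strands are cross-linked: a core complex attaches ubiquitin to FANCD2 and FANCI, and nucleases held by SLX4 then open the cross-link. PARP1 and PARP2 mark strand breaks with poly-ADP-ribose, and cells that lack recombination are often killed by drugs that trap these enzymes. Ewing sarcoma lines are known for sensitivity to such drugs and for high SLFN11, a protein that blocks stalled replication forks. Most of these genes are transcribed more in cycling cells, many of them through E2F factors.

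ID2 itself was read first as the check of the labels. Its level was 77.9 ± 0.657 CPM (counts scaled to the library total, here with edgeR's TMM factors; mean ± SD, n = 3) in the wild-type group. Clone 1 had 18.1 ± 0.777 CPM, clone 2 had 50.9 ± 3.16 and the libraries labelled rescue had 41.5 ± 0.537. The libraries labelled rescue thus had less ID2 RNA than their parent clone (log2 fold change -0.29, SE 0.047, edgeR Benjamini-Hochberg adjusted p = 3.52e-06), which goes against the label at the RNA level. The labels do not describe what was put back. Library totals ran from 19420408 to 29748084 counts. Of 10 Ewing sarcoma markers, 9 had reads and summed to between 2760 and 3230 CPM over the 12 libraries, with ERG absent from the counts. Markers of epithelial cells summed to 20.5 to 22.3 CPM in clone 1 and to between 2.38 and 6.48 in the other groups. Of these 7 markers, 3 were among the counts, and CDH1, KRT5, KRT14 and KRT19 were absent from them. The 6 fibroblast markers summed to 225 to 228 CPM in wild-type and 460 to 484 in clone 1. In clone 2 they summed to 129 to 138 CPM, and to 108 to 116 in the libraries labelled rescue. The markers' part in the results was not tested.

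Levels among the 43 genes were compared per kilobase of exon (CPM per kb, GENCODE 29 exon lengths). In wild-type, PARP1 was highest at 105 CPM per kb, followed by SLFN11 at 39.8, FANCI at 27.7, EXO1 at 24.6 and NBN at 18.6. PARP10 was lowest at 0.0497, with RAD51D at 0.375 and RAD51B at 0.795. PARP1 held the first place in each group, with 82.8 CPM per kb (clone 1), 109 (clone 2) and 113 (labelled rescue). The recombination mediators BRCA1 and BRCA2 were far lower, at 4.86 and 3.49 CPM per kb in wild-type.

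In each knockout clone, more of the genes were lower than higher against wild-type, by small amounts, and many were higher in the libraries labelled rescue than in clone 2. A gene was called when edgeR's quasi-likelihood test gave a Benjamini-Hochberg adjusted p under 0.05 over all genes tested. In clone 1 against wild-type, 28 of the 43 were lower, 7 higher and 8 not called, where 30.7% of all genes tested were lower, 30.8% higher and 61.5% called in either direction. In clone 2 against wild-type, 26 were lower, 6 higher and 11 not called, beside 30.6% of all genes lower, 31.5% higher and 62.1% called. The median log2 fold change of the 43 was -0.23 in clone 1 and -0.22 in clone 2, against 0.01 for all genes tested in each. In the libraries labelled rescue against clone 2, 22 were higher, 3 lower and 18 not called, with a median of 0.14, where 19.3% of all genes were higher, 19.9% lower and 39.2% called.

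The changes were modest in size. Only 1 of the 43 changed by at least 0.58 on the log2 scale (about 1.5-fold) in clone 1, 6 in clone 2 and 0 between the libraries labelled rescue and clone 2. Among all genes tested, the shares called with at least that size were 23.2%, 25.0% and 9.55%. The 1 in clone 1 was PARP10, which is also among the 6 in clone 2 and is described below with no test. Clone 1 against wild-type and rescue-labelled against clone 2 share no library, so their calls may be set side by side. Of the 28 genes lower in clone 1, 17 were higher in the libraries labelled rescue than in clone 2 (60.7% of the 28 and 77.3% of the 22 higher genes). Over all genes tested, the same overlap was 1568 genes, 29.9% of those lower in clone 1 and 47.5% of those higher in the libraries labelled rescue. Both overlaps are counts of calls and were given no test of their own. The 43 also had more such calls to begin with, 28 lower and 22 higher, beside 30.7% and 19.3% of all genes. The overlap shares were not corrected for these call rates, so they do not show a closer match for the 43. The plot of fold changes by gene shows these 3 comparisons by functional group.

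**Figure D1:**
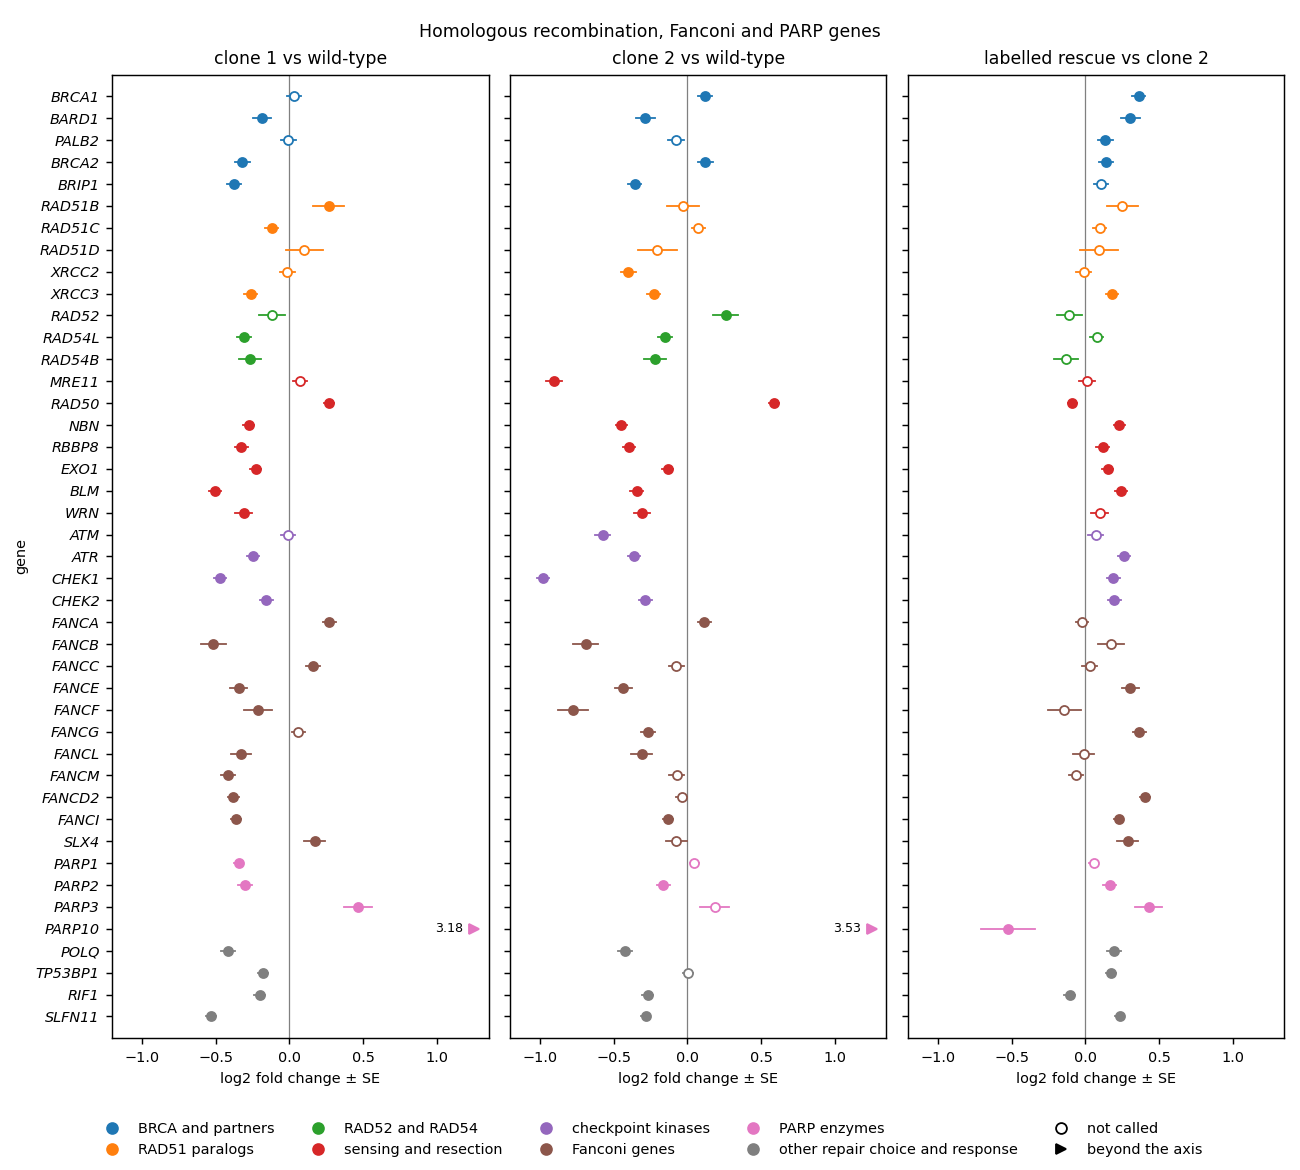
Log2 fold change (x axis) with its SE for each of the 43 genes (y axis), coloured by role, in clone 1 against wild-type, clone 2 against wild-type, and the libraries labelled rescue against clone 2; open points were not called, and PARP10 lies beyond the axis at 3.18 and 3.53 in the first and second panels. Filled points lie mostly left of 0 in the clones (28 and 26 lower) and mostly right of 0 in the last panel (22 higher).

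Many of the genes are textbook targets of E2F, so the 38 with a RefSeq promoter (GRCh38.p14, 250 bases before to 50 after the start, any listed start counted) were searched on both strands for the letters GGCGGGAA, TTTGGCGC and TTTCGCGC. Of the 38, 12 held at least 1 of them (31.6%), against 8.3% of 11553 tested genes with a promoter, 62.9% of 35 S phase genes and 8.7% of 23 G2 and M phase genes. Of all 27305 genes with a promoter, tested or not, 5.1% held at least 1 of the 3, and the shares below are set against these genes. Singly, GGCGGGAA stood in 28.9% of the 38 and 3.8% of all 27305, TTTGGCGC in 0 and 0.8%, and TTTCGCGC in 5.3% and 0.6%. A pair of E-box forms, letters that E proteins can bind, had shares close to those of all genes: CAGCTG in 18.4% against 21.1%, and CAGGTG in 23.7% against 24.1%. The CHR element TTTGAA stood in 13.2% against 18.2% and CCAAT in 42.1% against 39.7%. The stretches below, 110 bases before to 10 from a start, show 5 promoters with the letters GGCGGGAA in capitals. TTCCCGCC is the same letters on the other strand. CHEK1, whose window holds none of the 3 motifs, is shown beside them.
BLM (chr15:90717236-90717355, plus strand): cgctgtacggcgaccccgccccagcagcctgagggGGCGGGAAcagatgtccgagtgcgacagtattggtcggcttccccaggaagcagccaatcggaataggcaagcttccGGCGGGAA
FANCD2 (chr3:10026327-10026446, plus strand): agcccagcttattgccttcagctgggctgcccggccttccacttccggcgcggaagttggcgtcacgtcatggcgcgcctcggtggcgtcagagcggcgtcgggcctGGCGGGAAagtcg
BRIP1 (chr17:61863519-61863638, minus strand): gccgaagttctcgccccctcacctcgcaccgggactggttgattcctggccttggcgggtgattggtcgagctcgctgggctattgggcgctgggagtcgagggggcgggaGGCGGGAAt
RAD54L (chr1:46247578-46247697, plus strand): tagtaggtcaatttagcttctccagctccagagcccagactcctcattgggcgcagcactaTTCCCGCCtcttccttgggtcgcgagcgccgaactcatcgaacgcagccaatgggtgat
PARP2 (chr14:20343525-20343644, plus strand): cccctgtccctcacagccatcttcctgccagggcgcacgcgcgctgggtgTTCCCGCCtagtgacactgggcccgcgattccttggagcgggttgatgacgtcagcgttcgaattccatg
CHEK1 (chr11:125626119-125626238, plus strand): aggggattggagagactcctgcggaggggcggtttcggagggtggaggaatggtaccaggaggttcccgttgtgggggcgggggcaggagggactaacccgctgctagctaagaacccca

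BLM carries the letters at 2 places, the first starting 75 bases before its start site and the second just after it. In RAD54L and PARP2 they lie on the opposite strand. The 12 genes with a match had a median log2 fold change of -0.31 in clone 1, -0.20 in clone 2 and 0.13 in the libraries labelled rescue against clone 2, and the 26 without one had -0.17, -0.24 and 0.16. A match is a description of letters and says nothing of whether a factor was bound.

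Among BRCA1, BRCA2 and their partners, the clones differed from each other. BRCA2, which loads the recombinase onto DNA (chr13:32315474-32400266, GENCODE 29, hg38), stood at 43.2, 42.6 and 42.7 CPM in the wild-type libraries, 32.7, 35.9 and 34.0 in those of clone 1, 46.2, 49.1 and 44.7 in those of clone 2, and 53.2, 47.1 and 53.8 in those labelled rescue. Clone 1 was below every other library, and clone 2 lay above wild-type. It fell by 0.32 in clone 1 (log2, SE 0.053, edgeR adjusted p = 1.75e-06) and rose by 0.12 in clone 2 (SE 0.051, edgeR adjusted p = 0.037), a difference between clones of 0.44 (edgeR adjusted p = 1.72e-09). The median gene within 10 Mb of BRCA2 moved by -0.36 in clone 1 and 0.07 in clone 2. Relative to those 72 neighbours, BRCA2 stood at 0.05 in clone 1 (edgeR adjusted p = 0.485) and 0.05 in clone 2 (edgeR adjusted p = 0.388), so neither call held.

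BRCA1, whose complex with BARD1 is a ubiquitin ligase, was not called in clone 1 (log2 fold change 0.03), rose by 0.12 in clone 2, and was 0.36 higher in the libraries labelled rescue than in clone 2 (44.6 ± 0.886, 45.4 ± 1.45, 48.6 ± 2.03 and 62.4 ± 2.44 CPM in wild-type, clone 1, clone 2 and the libraries labelled rescue). The clone 2 call of BRCA1 did not hold relative to neighbours (0.07, edgeR adjusted p = 0.206). BARD1 fell by 0.18 in clone 1 and fell by 0.29 in clone 2 and was 0.30 higher in the libraries labelled rescue. BRIP1, a helicase that binds BRCA1, fell by 0.38 in clone 1, fell by 0.36 in clone 2 and was not called between rescue-labelled and clone 2 (0.11). PALB2, the bridge between BRCA1 and BRCA2, was called in neither clone (-0.01 and -0.08) and was 0.14 higher in the libraries labelled rescue than in clone 2.

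The relatives of the recombinase that help it form filaments moved little and in different directions. XRCC3 fell by 0.26 in clone 1 and fell by 0.23 in clone 2. XRCC2 was not called in clone 1 (-0.01), fell by 0.40 in clone 2 and was not called between clone 2 and the libraries labelled rescue (41.5 ± 0.65, 41.0 ± 2.44, 31.4 ± 0.477 and 31.2 ± 1.36 CPM in the 4 groups, in the order above). Its neighbours within 10 Mb had a median of 0.07 in clone 2. RAD51B rose by 0.27 and RAD51C fell by 0.12 in clone 1, and neither was called in clone 2 (-0.03 and 0.08). RAD51D, with group means of 3.66 to 4.54 CPM, was called in neither clone (0.10 and -0.20). RAD54L, a motor protein of strand exchange, fell by 0.31 in clone 1 and fell by 0.15 in clone 2. The clone 2 call of RAD54L did not hold relative to neighbours (-0.10, edgeR adjusted p = 0.0568). RAD54B, its relative, fell by 0.27 in clone 1 and fell by 0.22 in clone 2, but stood at 0.04 and 0.09 relative to its neighbours. RAD52, an annealing protein, was not called in clone 1 (-0.12) and rose by 0.26 in clone 2. Between the libraries labelled rescue and clone 2, XRCC3 was the only one of these 8 called, at 0.18.

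Within the break-sensing complex, MRE11 and NBN fell and RAD50 rose in clone 2. MRE11, the nuclease (chr11:94415578-94493908), stood at 57.0, 60.5 and 65.3 CPM in the wild-type libraries, 65.4, 63.5 and 63.5 in those of clone 1, 33.4, 31.2 and 33.1 in those of clone 2, and 34.1, 30.4 and 34.2 in those labelled rescue. Clone 2 and the line derived from it lay far below the other 6 libraries, with no overlap. The log2 fold change was 0.07 in clone 1 (SE 0.047, edgeR adjusted p = 0.197) and -0.90 in clone 2 (SE 0.052, edgeR adjusted p = 1.6e-18), or 0.534 of the wild-type level. RAD50, the ATPase that tethers the ends (chr5:132556019-132646344), stood at 123, 123.5 and 127 CPM in the wild-type libraries, 150.9, 149.1 and 149.4 in those of clone 1, 182.7, 188 and 191.7 in those of clone 2, and 176.4, 172.8 and 179.9 in those labelled rescue. The groups did not overlap, and RAD50 rose by 0.27 in clone 1 (SE 0.034, edgeR adjusted p = 7e-09) and by 0.59 in clone 2 (SE 0.033, edgeR adjusted p = 1.07e-18). NBN, the subunit that recruits ATM, fell by 0.28 in clone 1, where its neighbours had a median of -0.27. In clone 2 NBN fell by 0.45 and the neighbour median was -0.33, so relative to neighbours it stood at -0.12 (edgeR adjusted p = 0.00482). NBN was 0.23 higher in the libraries labelled rescue than in clone 2.

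The factors that cut back or unwind the ends (RBBP8, EXO1, BLM and WRN) were called lower in each clone, but relative to neighbours only BLM was lower in clone 2. BLM, a helicase mutated in Bloom syndrome, stood at 74.8 ± 0.136 CPM in wild-type, 52.7 ± 2.73 (clone 1), 58.9 ± 0.964 (clone 2) and 69.6 ± 2.84 (labelled rescue). It fell by 0.51 in clone 1 (SE 0.043, edgeR adjusted p = 2.13e-13) and fell by 0.34 in clone 2 (SE 0.043, edgeR adjusted p = 3.79e-09). EXO1, an exonuclease, fell by 0.23 and WRN, the Werner syndrome helicase, fell by 0.31 in clone 1, and in clone 2 they fell by 0.13 and fell by 0.31. Relative to neighbours in clone 2, EXO1 stood at -0.07 (edgeR adjusted p = 0.124) and WRN at -0.12 (edgeR adjusted p = 0.0567), and WRN was called in neither clone against its chromosome median (edgeR adjusted p = 0.0937 and 0.186). RBBP8 (CtIP, which starts resection; chr18:22798261-23026488) stood at 93.2, 88.0 and 91.2 CPM in the wild-type libraries, 71.0, 68.3 and 78.3 in those of clone 1, 66.7, 70.6 and 70.2 in those of clone 2, and 76.2, 75.4 and 73.4 in those labelled rescue. Every other library lay below wild-type. RBBP8 fell by 0.33 in clone 1 (SE 0.043, edgeR adjusted p = 1.4e-08) and fell by 0.40 in clone 2 (SE 0.043, edgeR adjusted p = 1.74e-10), where its 28 neighbours within 10 Mb had medians of -0.34 and -0.37.

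The 4 checkpoint kinases were all called lower in clone 2, and all but ATM were called lower in clone 1. Of all genes tested, 30.6% were lower in clone 2 and 30.7% in clone 1. CHEK1, which holds back the cell cycle when replication stalls (chr11:125625136-125676255), stood at 100.6, 93.6 and 100.1 CPM in the wild-type libraries, 72.8, 69.0 and 70.7 in those of clone 1, 50.4, 50.7 and 48.4 in those of clone 2, and 56.3, 55.6 and 58.5 in those labelled rescue. The 4 groups did not overlap, with wild-type highest and clone 2 lowest. CHEK1 fell by 0.47 in clone 1 (SE 0.040, edgeR adjusted p = 1.43e-13) and fell by 0.98 in clone 2 (SE 0.042, edgeR adjusted p = 1.04e-22), and was 0.19 higher in the libraries labelled rescue than in clone 2 (SE 0.043, edgeR adjusted p = 5.24e-04). ATM, the kinase that answers breaks (chr11:108222484-108369102), stood at 69.9, 70.6 and 72.3 CPM in the wild-type libraries, 66.4, 73.1 and 71.8 in those of clone 1, 45.9, 48.7 and 48.8 in those of clone 2, and 53.5, 44.9 and 51.6 in those labelled rescue. Wild-type and clone 1 overlapped, and both lay above the other 6 libraries. ATM was at -0.01 in clone 1 (SE 0.047, edgeR adjusted p = 0.908) and fell by 0.57 in clone 2 (SE 0.050, edgeR adjusted p = 4.36e-13). CHEK1 and ATM lie on chromosome 11, whose median was -0.60 in clone 2. Relative to neighbours in clone 2, ATM was higher (0.12, edgeR adjusted p = 0.0339) and CHEK1 lower (-0.43, edgeR adjusted p = 1.52e-11). ATR, the kinase of stalled forks, fell by 0.25 in clone 1 and fell by 0.36 in clone 2, and CHEK2, a target of ATM, fell by 0.16 and fell by 0.29. Both were higher in the libraries labelled rescue than in clone 2, ATR by 0.26 and CHEK2 by 0.20. The clone 1 call of CHEK2 did not hold relative to neighbours (-0.09, edgeR adjusted p = 0.0646) or to the chromosome median (-0.09, edgeR adjusted p = 0.0765).

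**Figure D2:**
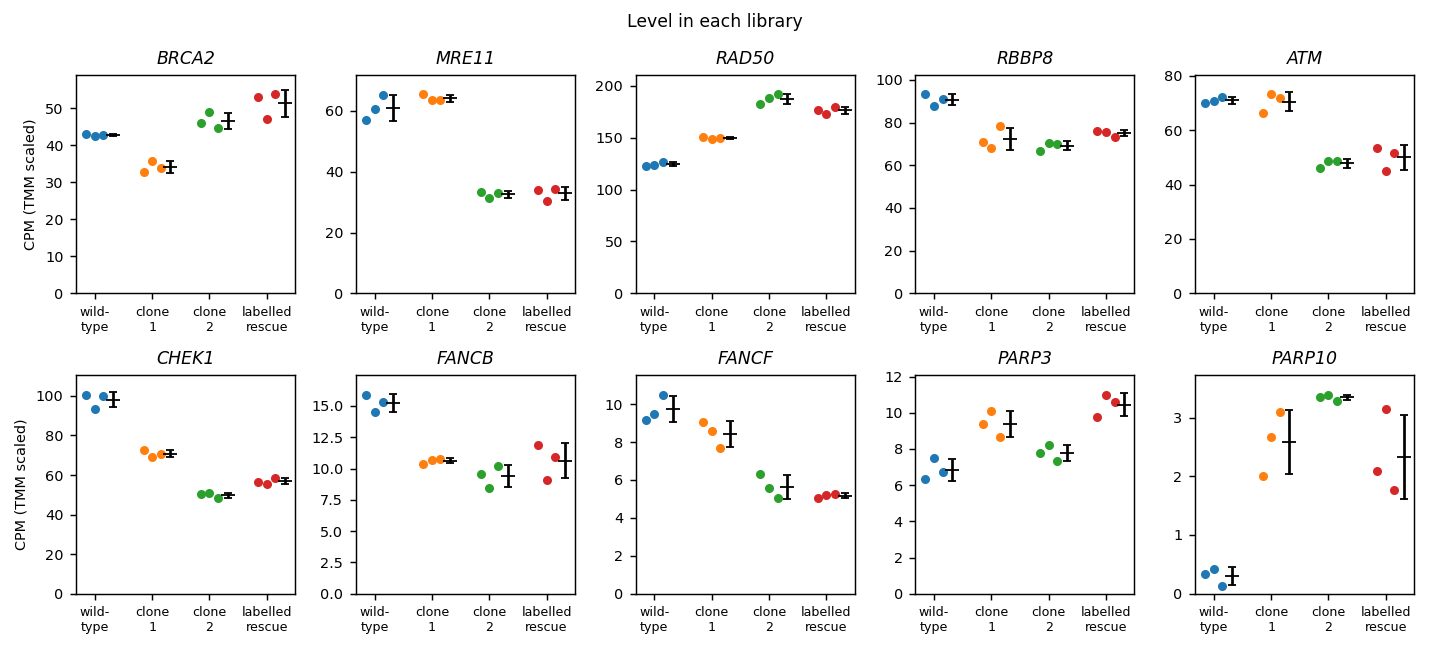
Level in each library (y axis, TMM-scaled CPM, from 0) for 10 genes in the 4 groups (x axis); points are libraries, and the bar beside them is the mean with SD (n = 3). MRE11, ATM and CHEK1 are lowest in clone 2 and the libraries labelled rescue, RAD50 is highest there, and PARP10 lies under 0.5 CPM in wild-type alone.

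Of the 11 Fanconi genes, 7 were lower and 3 higher in clone 1, and 6 were lower and 1 higher in clone 2 (all genes tested: 30.7% lower and 30.8% higher in clone 1, 30.6% and 31.5% in clone 2). FANCB, a core subunit encoded on the X chromosome (chrX:14835961-14873069), stood at 15.9, 14.5 and 15.3 CPM in the wild-type libraries, 10.4, 10.7 and 10.8 in those of clone 1, 9.60, 8.45 and 10.2 in those of clone 2, and 11.9, 9.10 and 10.9 in those labelled rescue. Every wild-type library lay above the other 9. FANCB fell by 0.52 in clone 1 (SE 0.084, edgeR adjusted p = 1.06e-06) and fell by 0.69 in clone 2 (SE 0.086, edgeR adjusted p = 4.64e-09), while its neighbours within 10 Mb had medians of -0.03 and 0.05. FANCF, a core adaptor (chr11:22622890-22625841), stood at 9.19, 9.48 and 10.5 CPM in the wild-type libraries, 9.05, 8.57 and 7.70 in those of clone 1, 6.32, 5.57 and 5.05 in those of clone 2, and 5.03, 5.19 and 5.28 in those labelled rescue. Clone 2 and the libraries labelled rescue overlapped each other and lay below the rest. FANCF fell by 0.21 in clone 1 (SE 0.093, edgeR adjusted p = 0.0452), a call lost under some alternatives, and fell by 0.78 in clone 2 (SE 0.101, edgeR adjusted p = 1.19e-08).

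The pair that receives ubiquitin, FANCD2 and FANCI, was lower in clone 1. FANCD2 stood at 92.7 ± 1.71 CPM in wild-type, 71.2 ± 0.787 (clone 1), 90.3 ± 1.60 (clone 2) and 119.7 ± 1.24 (labelled rescue). It fell by 0.38 in clone 1 (SE 0.037, edgeR adjusted p = 7.5e-12), was not called in clone 2 (-0.04, edgeR adjusted p = 0.371), and was 0.41 higher in the libraries labelled rescue than in clone 2 (SE 0.035, edgeR adjusted p = 1.91e-12). Its 79 neighbours within 10 Mb had medians of -0.20 in clone 1 and 0.18 in clone 2, and relative to them FANCD2 was lower in both, at -0.18 and -0.22 (edgeR adjusted p = 7.3e-05 and 1.87e-06). Against the chromosome median it was instead 0.16 higher in clone 2 (edgeR adjusted p = 2.12e-04). FANCI fell by 0.36 in clone 1 and fell by 0.13 in clone 2 (-0.03 relative to its neighbours, edgeR adjusted p = 0.476), and was 0.23 higher in the libraries labelled rescue than in clone 2. Of the core subunits, FANCE fell by 0.34 and fell by 0.43, and FANCL, the ubiquitin ligase, fell by 0.33 and fell by 0.31. FANCG was not called in clone 1 (0.06), fell by 0.27 in clone 2 and was 0.37 higher in the libraries labelled rescue. FANCA rose by 0.27 in clone 1 and by 0.12 in clone 2, where it stood at -0.20 relative to its neighbours. FANCC rose by 0.16 in clone 1 and was not called in clone 2 (-0.07). FANCM, a translocase that recruits the core, fell by 0.42 in clone 1 and was not called in clone 2 (-0.07). SLX4, the nuclease scaffold, rose by 0.17 in clone 1 (-0.0015 relative to its neighbours), was not called in clone 2 (-0.08) and was 0.29 higher in the libraries labelled rescue than in clone 2.

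The 4 PARP enzymes did not move together. PARP1, the main poly-ADP-ribose polymerase, fell by 0.34 in clone 1 (753 ± 12.9 to 594 ± 9.06 CPM, SE 0.029, edgeR adjusted p = 2.32e-13) and was not called in clone 2 (778 ± 11.6 CPM, log2 fold change 0.05, edgeR adjusted p = 0.157) or between the libraries labelled rescue and clone 2 (0.06). PARP2 fell by 0.30 in clone 1 and fell by 0.16 in clone 2, and was 0.17 higher in the libraries labelled rescue than in clone 2. The last 2 calls did not hold relative to neighbours (-0.07 and 0.10, edgeR adjusted p = 0.157 and 0.0657). PARP3, a mono-ADP-ribosyltransferase of break repair (chr3:51942345-51948867), stood at 6.33, 7.49 and 6.72 CPM in the wild-type libraries, 9.40, 10.1 and 8.68 in those of clone 1, 7.78, 8.20 and 7.31 in those of clone 2, and 9.76, 11 and 10.6 in those labelled rescue. Clone 2 overlapped wild-type, and the libraries labelled rescue and clone 1 lay above both. PARP3 rose by 0.46 in clone 1 (SE 0.095, edgeR adjusted p = 4.83e-05), was at 0.19 in clone 2 (SE 0.099, edgeR adjusted p = 0.101) and was 0.43 higher in the libraries labelled rescue than in clone 2 (SE 0.090, edgeR adjusted p = 1.7e-04). Relative to its 177 neighbours within 10 Mb, whose median was -0.41 in clone 2, it was 0.59 higher there (SE 0.099, edgeR adjusted p = 2.15e-06).

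PARP10, a mono-ADP-ribosyltransferase (chr8:143977153-144012772), showed the largest ratio of the 43 at the lowest level. It had 8, 9 and 4 reads in the wild-type libraries, 40, 75 and 75 in those of clone 1, 96, 67 and 71 in those of clone 2, and 57, 81 and 46 in those labelled rescue. In CPM these were 0.336, 0.426 and 0.138, then 2.00, 2.67 and 3.09, then 3.35, 3.39 and 3.29, then 2.09, 3.14 and 1.76. Wild-type lay below all 9 other libraries. No wild-type library reached 10 reads, so the gene passed the filter only through the other groups, where it is high. A gene that passes in this way had to differ, so its log2 fold changes against wild-type, 3.18 in clone 1 and 3.53 in clone 2, are given as a description with no test, although the gene is counted among those higher. It was 0.52 lower in the libraries labelled rescue than in clone 2 (log2 fold change -0.52, SE 0.182, edgeR adjusted p = 0.0198), a call lost under some alternatives.

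The 4 remaining genes set the choice of repair route or the response of the fork. POLQ, the polymerase of microhomology-mediated joining, stood at 51.2 ± 1.05 CPM in wild-type, 38.2 ± 1.09 (clone 1), 38.1 ± 1.23 (clone 2) and 43.6 ± 2.19 (labelled rescue). It fell by 0.42 in clone 1, fell by 0.43 in clone 2 and was 0.20 higher in the libraries labelled rescue than in clone 2. SLFN11 stood at 238 ± 5.25 CPM in wild-type, 165 ± 3.89 (clone 1), 196 ± 2.83 (clone 2) and 230 ± 2.02 (labelled rescue). It fell by 0.53 in clone 1 (SE 0.032, edgeR adjusted p = 5.71e-18) and fell by 0.28 in clone 2 (SE 0.032, edgeR adjusted p = 3.76e-10), and was 0.23 higher in the libraries labelled rescue than in clone 2. TP53BP1, which protects ends from resection, fell by 0.18 in clone 1 and was not called in clone 2 (0.01), and RIF1, its effector, fell by 0.20 and fell by 0.27. RIF1 was 1 of 3 genes lower in the libraries labelled rescue than in clone 2 (log2 fold change -0.11), with RAD50 (-0.09) and PARP10, and each of these 3 calls was lost under some alternatives.

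MRE11, ATM, CHEK1 and FANCF lie on chromosome 11. Its 711 tested genes with a mean of at least 1 CPM had a median log2 fold change of -0.60 in clone 2. The median was -0.55 in the libraries labelled rescue against wild-type and -0.02 in clone 1. Read against genes within 10 Mb, the 4 gave unlike values in clone 2, and their differences from each other were not tested. MRE11 stood at 0.00 relative to its 47 neighbours, whose median was -0.91 (SE 0.052, edgeR adjusted p = 0.957). ATM was slightly above its 61 neighbours, whose median was -0.70 (0.12, SE 0.050, edgeR adjusted p = 0.0339). CHEK1 stood below its 95 neighbours, whose median was -0.55 (centred log2 fold change -0.43, SE 0.042, edgeR adjusted p = 1.52e-11), and below the chromosome median (-0.38, edgeR adjusted p = 2.11e-10). FANCF was below its 51 neighbours, whose median was -0.50 (centred -0.28, SE 0.101, edgeR adjusted p = 0.0172), and was not called against the chromosome median (-0.18, edgeR adjusted p = 0.123). Against the chromosome median, MRE11 was at -0.31 (edgeR adjusted p = 2.59e-06), so its result depends on which reference is taken.

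Regional medians also moved with other genes. Chromosome 18 stood at -0.36 in both clones and held RBBP8, which was at 0.01 in clone 1 and -0.03 in clone 2 relative to its neighbours (edgeR adjusted p = 0.818 and 0.613). Chromosome 13 stood at -0.29 in clone 1 and 0.10 in clone 2 and held BRCA2. The neighbours of RAD50 had a median of 0.29 in clone 1, and RAD50 was at -0.03 relative to them (edgeR adjusted p = 0.515), whereas in clone 2 it was 0.42 above its neighbours (SE 0.033, edgeR adjusted p = 3.76e-14). FANCB stood at -0.48 and -0.74 relative to its neighbours in the clones. With every gene centred on its neighbours, 20 of the 43 were lower and 7 higher in clone 1, where 27.3% of all genes were lower and 31.2% higher. In clone 2, 20 were lower and 5 higher, beside 26.8% and 32.0% of all genes. The part of these regional medians in the results was not tested.

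**Figure D3:**
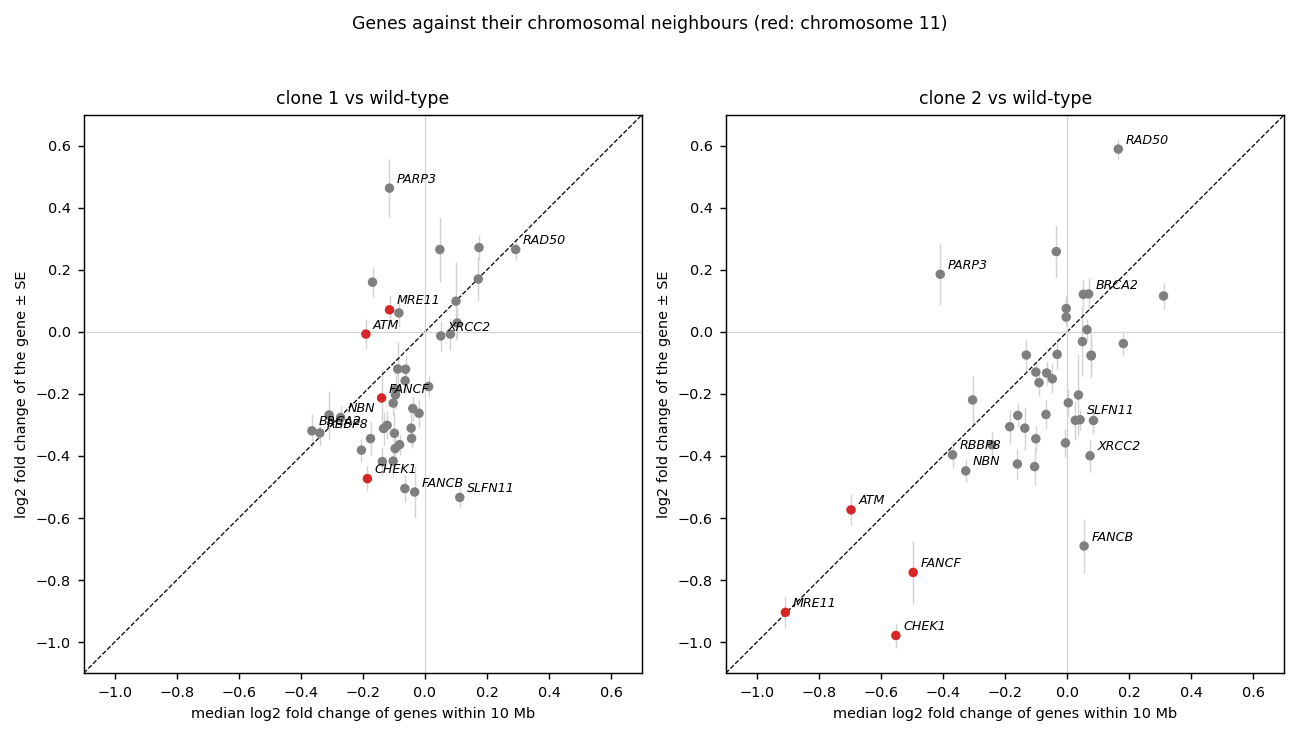
Log2 fold change of each gene with its SE (y axis) against the median of tested genes within 10 Mb (x axis) in clone 1 and clone 2 against wild-type; the dashed line marks equality, red points lie on chromosome 11, and PARP10 is beyond the axis. In clone 2, MRE11 lies on the line near -0.91, CHEK1 and FANCB lie below it, and RAD50 and PARP3 lie above it.

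Against wild-type, the libraries labelled rescue had 12 of the 43 higher, 18 lower and 13 not called, with a median of -0.05, where 28.5% of all genes tested were higher, 29.9% lower and 58.4% called. BRCA1 was 0.48 higher than in wild-type (SE 0.045, edgeR adjusted p = 2.62e-12) and FANCD2 0.37 higher (SE 0.035, edgeR adjusted p = 5.52e-12). The 79 neighbours of FANCD2 had a median of 0.36 in that comparison, and relative to them it stood at 0.01 (edgeR adjusted p = 0.907), whereas BRCA1 stood at 0.43 (edgeR adjusted p = 6.74e-11). PARP3 was 0.61 higher on the log2 scale. For PARP10 the value was 3.01, again a description with no test because the gene passed the filter only through the other groups. MRE11 was at -0.89, CHEK1 at -0.79, FANCF at -0.92, ATM at -0.50, FANCB at -0.52 and XRCC2 at -0.41, all called lower. SLFN11 (-0.05), PARP2 (0.00), EXO1 (0.02) and BARD1 (0.02) were not called. Against their neighbours, SLFN11 was lower (-0.11, edgeR adjusted p = 0.00193) and EXO1 higher (0.11, edgeR adjusted p = 0.0132). PARP2 and BARD1 were again not called. Relative to neighbours within 10 Mb, 11 of the 43 were lower and 11 higher than in wild-type, shares near the 26.2% and 28.5% of all genes. Of the 43, 5 differed from wild-type by at least 0.58, PARP10 among them, where 21.1% of all genes were called with that size.

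Between the clones, 14 of the 43 were higher in clone 2 than in clone 1, 15 lower and 14 not called, where 30.3% of all genes were higher, 31.9% lower and 62.2% called. ID2 RNA differed between them too, and its part in these differences cannot be told apart from that of the clone. MRE11 (-0.97), ATM (-0.57), FANCF (-0.56) and CHEK1 (-0.51) had the lowest values, and BRCA2 (0.44), PARP1 (0.39), RAD52 (0.38), FANCM (0.34) and FANCD2 (0.34) the highest. Relative to neighbours within 10 Mb, the differences of BRCA2 (0.01), FANCD2 (-0.04), ATM (-0.06) and FANCF (-0.21) were not called (edgeR adjusted p = 0.914, 0.333, 0.307 and 0.0866). Those of MRE11 (-0.18), CHEK1 (-0.14), PARP1 (0.35), RAD52 (0.33) and FANCM (0.27) were called. In all, 13 of the 43 were then higher in clone 2 and 12 lower, shares near the 29.9% and 29.8% of all genes. BRIP1, POLQ, WRN and FANCL, each lower in both clones, were at 0.02, -0.01, 0.01 and 0.02 and were not called.

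The proliferation lists moved beside the repair genes. Their counts stand beside 30.7% of all genes lower and 30.8% higher in clone 1, and 30.6% and 31.5% in clone 2. For the libraries labelled rescue against clone 2, 19.3% of all genes were higher. Of 41 S phase genes tested, none of which is among the 43, 35 were lower and 1 higher in clone 1 (median -0.32), 32 lower and 2 higher in clone 2 (median -0.31), and 37 higher in the libraries labelled rescue against clone 2 (median 0.25). Of 28 G2 and M phase genes, 17 were lower and 5 higher in clone 1, 26 lower in clone 2, and all 28 higher in the libraries labelled rescue against clone 2 (median 0.36). TYMS, thymidylate synthase, stood at 84.0 CPM in wild-type, 40.8 (clone 1), 51.5 (clone 2) and 71.9 (labelled rescue). MCM2, a subunit of the replicative helicase, went from 458 to 331, 262 and 338 CPM, and KIF23, a mitotic kinesin, from 117 to 102, 58.8 and 84.5 CPM. Cell-cycle phase was not measured, and the part of these lists in the repair genes' results was not tested. In bulk libraries, fewer cells in a phase and less RNA per cell cannot be told apart.

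**Figure D4:**
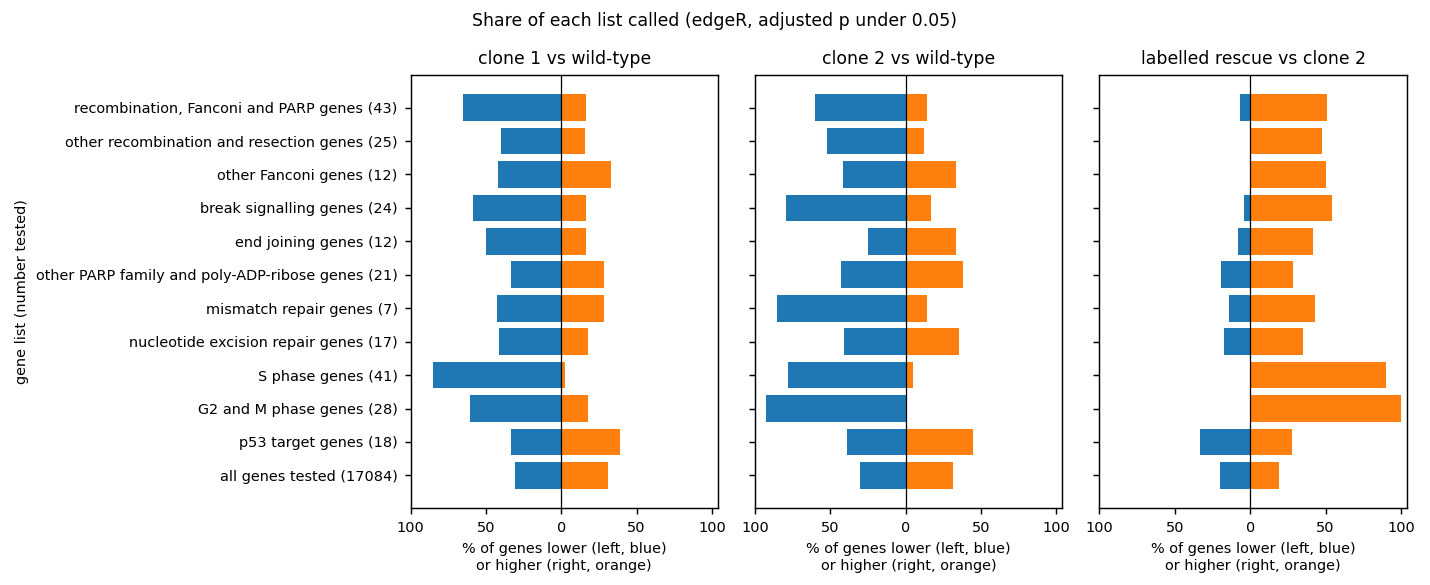
Percent of each gene list called lower (left, blue) or higher (right, orange) in 3 comparisons, with the number of genes tested in brackets and all genes tested at the bottom. S phase and G2 and M phase genes have long bars to the left in both clones and the longest bars to the right in the last panel; the share of the 43 repair genes called lower is above that of all genes in both clones.

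Other genes of the same routes gave mixed counts. Beside them, 30.7% of all genes tested were lower and 30.8% higher in clone 1, and 30.6% and 31.5% in clone 2. In the libraries labelled rescue against clone 2, 19.3% of all genes were higher and 19.9% lower. Of 25 other recombination and resection genes, 10 were lower and 4 higher in clone 1, 13 lower and 3 higher in clone 2, and 12 higher in the libraries labelled rescue against clone 2. RAD51AP1, a cofactor of the recombinase, fell by 0.78 in clone 1 and fell by 0.75 in clone 2, from 31.4 CPM to 18.4 and 18.8, and was at 24.6 in the libraries labelled rescue. Of 12 other Fanconi genes, 5 were lower and 4 higher in each clone, and 6 were higher in the libraries labelled rescue against clone 2. WDR48, which with USP1 removes ubiquitin from FANCD2, fell by 0.55 in clone 1 and fell by 0.61 in clone 2, and USP1 fell by 0.35 and fell by 0.29. FAAP100 rose by 0.11 in clone 1 and fell by 0.64 in clone 2.

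Of 24 break signalling genes, 14 were lower and 4 higher in clone 1, 19 lower and 4 higher in clone 2, and 13 higher and 1 lower in the libraries labelled rescue against clone 2. The shares of all genes were 30.7% lower and 30.8% higher in clone 1, 30.6% and 31.5% in clone 2. They were 19.3% higher and 19.9% lower in the last comparison. H2AX, the histone phosphorylated beside breaks, stood at 94.5 CPM in wild-type, 71.4 (clone 1), 44.2 (clone 2) and 59.0 (labelled rescue), and fell by 1.09 in clone 2. WEE1, which restrains entry into mitosis, fell by 0.12 in clone 1 and fell by 1.20 in clone 2. Both lie on chromosome 11, as does MUS81, a structure-selective nuclease that fell by 0.60 in clone 2. The median of that chromosome in clone 2 was -0.60, and the values of H2AX, WEE1 and MUS81 are given here without centring. ABRAXAS1, a scaffold of a BRCA1 complex on chromosome 4, fell by 1.05 in clone 2. Of the break signalling genes that were higher, SHLD1 rose by 0.46 in clone 1 and by 0.87 in clone 2, and BABAM2 by 0.25 and 0.41. Of 12 end joining genes, 6 were lower and 2 higher in clone 1, and 3 lower and 4 higher in clone 2. LIG4, the ligase of that route, lies on chromosome 13, fell by 0.64 in clone 1 and rose by 0.16 in clone 2.

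Of 21 other PARP family and poly-ADP-ribose genes, 7 were lower and 6 higher in clone 1, and 9 lower and 8 higher in clone 2. For this and the next lists, the shares of all genes were 30.7% lower and 30.8% higher in clone 1, and 30.6% and 31.5% in clone 2. PARP12 rose by 1.00 in clone 1 and by 0.69 in clone 2, PARP14 by 0.68 and 0.82, and PARP9 by 0.87 and 0.45. All 3 are known as interferon-induced. Others of this list were lower, with PARP11 at -0.83 in clone 1, and MACROD2 at -1.71 and MACROD1 at -0.80 in clone 2. Of 4 other Schlafen genes tested, 3 were higher in clone 1 and 4 in clone 2, while SLFN11 was lower in both. SLFN12L rose by 2.26 in clone 1 and by 1.34 in clone 2 (4.21 CPM in wild-type, 20.4 and 10.9 in the clones), and SLFN5 by 1.12 and 0.92. Mismatch repair genes (7) had 3 lower and 2 higher in clone 1, and 6 lower and 1 higher in clone 2. Nucleotide excision repair genes (17) had 7 lower and 3 higher in clone 1, and 7 lower and 6 higher in clone 2. Of 18 p53 target genes, 7 were higher and 6 lower in clone 1, and 8 higher and 7 lower in clone 2. CDKN1A, which encodes an inhibitor of cyclin kinases, rose in both clones, with 22.3 CPM in wild-type, 55.9 (clone 1), 81.2 (clone 2) and 47.9 (labelled rescue). Among the p53 targets that were lower in clone 2 were PHLDA3 (log2 fold change -0.81) and TP53I3 (-0.61).

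Some values are uncertain because exons overlap those of other genes and the labels do not say whether the counting used strand. The overlap covers 79.7% of RAD50's exon bases (AC116366.3, same strand), 76.7% of XRCC3 (KLC1, opposite strand), 59.1% of RAD54B (FSBP, same strand), 28.7% of TP53BP1 (TUBGCP4), 25.1% of RAD54L (LRRC41) and 23.6% of FANCA (ZNF276). FANCD2 and CHEK2 have pseudogene copies whose reads the counting could have split. Of the calls in clone 1, 30 of 35 held in each alternative other than centring on a chromosome or on neighbours, and in clone 2, 23 of 32.

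Leaving out 1 library ended 5 calls in clone 1, given here with the edgeR adjusted p that resulted. BARD1 ended without wild-type 3 (0.0876), and RAD51B without wild-type 2 (0.113) or clone 1 replicate 1 (0.0984). RAD51C ended without wild-type 1 or 2 (0.0507 and 0.0538) or clone 1 replicate 2 (0.0705). FANCF ended without wild-type 3 (0.200) or clone 1 replicate 2 or 3 (0.0777 and 0.190), and SLX4 without wild-type 3 (0.333) or clone 1 replicate 1 or 2 (0.0582 and 0.169). In clone 2, RAD52 ended without wild-type 1 (0.0795), and FANCA without wild-type 3 (0.175) or clone 2 replicate 1 or 2 (0.115 and 0.102). BRCA1 and BRCA2 in clone 2 ended without any of several libraries, with the highest adjusted p (0.202 and 0.249) without clone 2 replicate 2. Between the libraries labelled rescue and clone 2, single libraries ended the calls of PALB2, BRCA2, RAD50, RBBP8, PARP10 and RIF1, with the highest edgeR adjusted p 0.139, 0.0841, 0.206, 0.111, 0.166 and 0.332. Under upper quartile scaling, the calls of RAD54L, RAD54B, EXO1, FANCI and PARP2 in clone 2 ended too (edgeR adjusted p from 0.0627 for PARP2 to 0.147 for EXO1).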

How the data were processed

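Poly-A RNA of 12 TC71 libraries was made into stranded mRNA libraries, per the labels' protocols. FastQC, STAR and the build hg38 are named in the submitters' processing notes; the read counter, annotation and strand setting are not named in the labels or files. The authors deposited raw counts per Ensembl gene. Of 21569 IDs, 20717 matched a symbol and 20825 matched GENCODE 29.

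Counts were tested with edgeR 4.0.16 (R 4.3.3; quasi-likelihood, TMM scaling, filterByExpr with a minimum count of 10, all 12 libraries with 1 mean per group, 8 residual degrees of freedom, Benjamini-Hochberg adjustment over 17084 genes, threshold 0.05). The fit was tested on simulated data. SE is the absolute log2 fold change divided by the square root of F. Alternatives were DESeq2 1.42.0, other scalings and filters, the compared groups alone, a replicate block, centring on the chromosome or on at least 20 genes within 10 Mb (mean of at least 1 CPM), and leaving out each library. Replicates differed beyond sampling noise (chi-square per degree of freedom 1.54 to 3.16), so none was merged.

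The 43 genes and the other lists were chosen with earlier results of these data known. Values in every library are given for genes called with an absolute log2 fold change of at least 0.58 in any comparison and for genes on chromosomes 11, 13 and 18; other lists give up to 4 called genes per comparison. Promoters came from RefSeq (GRCh38.p14): 38 of 43 genes matched by symbol.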

Additional observations from a re-analysis of the deposited data

Results flagged for a closer look

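Clone 2 differed from clone 1 for 29 of the 43 genes by the direct contrast (clone 2 minus clone 1, log2, edgeR adjusted p under 0.05), a share near the 62.2% of all genes tested. ID2 RNA also differed, at 18.1 CPM in clone 1 and 50.9 in clone 2, and with 1 clone per knockout the part of ID2 and that of the clone cannot be told apart. The difference was negative for 15: MRE11 (-0.97), ATM (-0.57), FANCF (-0.56), CHEK1 (-0.51), XRCC2 (-0.39), FANCG (-0.33), RAD51D (-0.30) and RAD51B (-0.30), and also PARP3 (-0.28), SLX4 (-0.25), FANCC (-0.23), NBN (-0.17), FANCA (-0.16), CHEK2 (-0.13) and ATR (-0.12). It was positive for 14: EXO1 (0.10), PARP2 (0.14), RAD54L (0.16), BLM (0.16), TP53BP1 (0.18), RAD51C (0.20) and FANCI (0.23), and also SLFN11 (0.25), RAD50 (0.32), FANCD2 (0.34), FANCM (0.34), RAD52 (0.38), PARP1 (0.39) and BRCA2 (0.44). Groups of 3 libraries were too small for a check of single libraries that stand apart.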

How the results depend on the processing

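In clone 2 against wild-type, 6 genes were higher and 26 lower; upper quartile scaling gave 10 and 21, no filter gave 3 higher, and leaving out 1 library gave 3 to 6 (3 without wild-type 1, wild-type 3 or clone 2 replicate 2). In rescue-labelled against clone 2, the 3 lower became 1 with no filter and 0 to 2 when 1 library was left out (0 without rescue-labelled replicate 3; 1 without wild-type 1, clone 2 replicate 2, or rescue-labelled 1 or 2). In rescue-labelled against wild-type, 12 higher and 18 lower became 11 and 11 under either centring, and 15 and 14 under upper quartile scaling, which also moved 14 and 15 to 16 and 11 between the clones. The other counts stayed within 1.5 times of the main ones. Calls kept in every setting other than centring were 30 of 35 in clone 1, 23 of 32 in clone 2, 19 of 25 in rescue-labelled against clone 2, 23 of 30 in rescue-labelled against wild-type and 22 of 29 between clones. Among values called before the change of setting or after it, signs changed only under centring, where a chromosome or regional median is subtracted. Signs of values called in neither also changed in places and are not listed. Among values called before or after centring on neighbours within 10 Mb, the sign changed in clone 1 against wild-type BRCA2 (0.045), RAD54B (0.041), RAD50 (-0.027), RBBP8 (0.013), ATM (0.18) and SLX4 (-0.0015), in clone 2 against wild-type RAD54B (0.085), MRE11 (0.0037), ATM (0.12) and FANCA (-0.20), in rescue-labelled against wild-type NBN (0.061), RBBP8 (0.0024), ATM (0.13), ATR (0.041) and FANCA (-0.14) and in clone 2 against clone 1 ATR (0.087), FANCD2 (-0.043) and PARP3 (0.017). Among those called before or after centring on the chromosome median, the sign changed in clone 1 against wild-type RBBP8 (0.032), in clone 2 against wild-type RAD54B (0.0017), ATM (0.021) and FANCD2 (0.16), in rescue-labelled against wild-type RBBP8 (0.015) and ATM (0.041) and in clone 2 against clone 1 ATM (0.014), CHEK1 (0.075) and FANCF (0.018). Same-numbered libraries of different groups were not taken as paired: their correlations did not all pass 0.1 in any pair of groups (0.042, 0.09 and 0.083 between the clones, each library best with its own number). With a replicate block, the counts higher and lower were 7 and 28, 6 and 26, 24 and 3, 13 and 18, and 15 and 15, in the order clone 1, clone 2, rescue-labelled against clone 2, rescue-labelled against wild-type and clone 2 against clone 1. Depth limits PARP10 most, with 4 to 9 reads in wild-type.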
